A study of Mus musculus with 6 samples.

Results

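Nfkbid and Birc3 are 2 genes controlled by NF-kB, and the table of RNA levels examined here holds 1 transcript of each, among 1037 transcripts of 847 matched genes. All rows whose RefSeq accession belongs to either gene were taken. Nfkbid is represented by NM_001360906, which is 1 of its 6 RefSeq accessions, and Birc3 by XM_006509828, a computationally predicted model and 1 of its 7 accessions. The cells were primary wildtype CD8+ T cells from mouse spleen, kept in complete RPMI medium and exposed for 2 h to daunorubicin (DNR) or to its solvent dimethyl sulfoxide (DMSO). DNR is an anthracycline drug that slips between DNA bases and traps topoisomerase II on broken DNA. There were 3 DMSO and 3 DNR samples, called biological replicates in the labels. Nothing in the labels ties a replicate to its own mouse. The p-values therefore set the difference between the groups against a spread between samples that may be technical. The sources used here do not give the dose of DNR, the strain, age and sex of the mice or any stimulation of the cells.

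NF-kB is a family of dimeric transcription factors that IkB proteins hold inactive until a kinase cascade triggers their degradation, as happens in T cells after engagement of the antigen receptor or of receptors of the tumour necrosis factor family. DNA double-strand breaks can also activate NF-kB through the kinase ATM. Nfkbid encodes IkBNS, an atypical IkB protein that is induced by NF-kB, acts in the nucleus on NF-kB bound to DNA and takes part in lymphocyte responses. Birc3 encodes cIAP2, a RING-type ubiquitin ligase of the inhibitor of apoptosis family that works with TRAF proteins downstream of tumour necrosis factor receptors and is itself an NF-kB target.

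Because NF-kB binds kappaB sites in DNA, the upstream sequence of both genes is shown, from RefSeq on GRCm38.p6. The transcript of Nfkbid in the table begins at the first of 3 start sites of the gene on chromosome 7 (30421731 to 30428749, plus strand). The first line is the stretch upstream of that start (chr7:30421481-30421730, plus strand) and the second the stretch upstream of the next start (chr7:30422156-30422405, plus strand), which lies in intron 1 of the listed transcript (30421835 to 30423402). Birc3 lies on the minus strand of chromosome 9 (7847468 to 7873205). The third line is the 215 bases of its promoter entry that lie outside the annotated gene (chr9:7873206-7873420, minus strand). Whether the predicted transcript in the table begins at that entry's start site is not known here. Each is written 5′ to 3′, with matches on either strand to a loose kappaB-like pattern, GGG and CC with any 5 bases between them, in capitals.
Nfkbid, first start: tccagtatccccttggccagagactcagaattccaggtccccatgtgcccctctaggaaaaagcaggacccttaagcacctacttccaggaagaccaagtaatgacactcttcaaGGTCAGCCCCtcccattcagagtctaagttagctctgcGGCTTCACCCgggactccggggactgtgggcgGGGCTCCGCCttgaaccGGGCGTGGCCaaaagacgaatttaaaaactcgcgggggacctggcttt
Nfkbid, second start: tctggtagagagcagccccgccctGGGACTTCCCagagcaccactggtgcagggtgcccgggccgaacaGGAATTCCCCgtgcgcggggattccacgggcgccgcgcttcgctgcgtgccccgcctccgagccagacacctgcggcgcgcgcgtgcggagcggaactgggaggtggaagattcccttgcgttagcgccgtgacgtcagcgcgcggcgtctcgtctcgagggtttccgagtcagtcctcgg
Birc3: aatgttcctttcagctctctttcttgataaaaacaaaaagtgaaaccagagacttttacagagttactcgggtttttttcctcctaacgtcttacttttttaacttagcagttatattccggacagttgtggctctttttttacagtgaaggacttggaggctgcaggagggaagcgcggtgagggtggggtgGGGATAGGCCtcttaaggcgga
The windows searched ran from 250 bases before to 50 bases after each start, 300 in all. The loose pattern occurred at 4 positions of the first Nfkbid window, at 2 of the second and at 1 of the Birc3 window. It also occurred at 1 position of the window of the third Nfkbid start, which is not printed here. Of 32851 mouse promoters of that length, 50.8% hold it, as do 69.0% of the 1054 promoters of genes in the table. A stricter form of the loose pattern requires the 5 bases to be any 2, then TT, then any 1. It had 1 match among these windows, GGGACTTCCC upstream of the second Nfkbid start, with its first base at position -226 from it (chr7:30422180-30422189). The stricter form is held by 4.79% of all promoters and by 6.55% of those of genes in the table. The windows of the first Nfkbid start, of the third (start at 30423275) and of Birc3 had 0 matches to it. These are matches of letters in short windows and not measured binding sites.

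Nfkbid RNA was higher after DNR. The values are FPKM (fragments counted per kilobase of a transcript and scaled to library depth), so levels can be set beside each other across genes. Nfkbid stood at 69.47, 68.01 and 58.47 FPKM in DMSO replicates 1, 2 and 3 and at 80.86, 83.49 and 86.92 FPKM in DNR replicates 1, 2 and 3. The groups did not overlap: the lowest DNR sample was 11.4 FPKM above the highest DMSO sample, and DMSO replicate 3 was the lowest of all. The mean went from 65.3 ± 5.97 to 83.8 ± 3.04 FPKM (SD, n = 3), which is 28.2% higher. On the log2(FPKM + 1) scale of the deposited values the difference was 0.36 ± 0.07 (SE; limma, Benjamini-Hochberg adjusted p = 0.0034 over 388 transcripts). Without DMSO replicate 3 it was 0.28.

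Birc3 RNA was lower after DNR as deposited. It stood at 21.50, 21.44 and 21.07 FPKM in DMSO replicates 1, 2 and 3 and at 17.22, 17.97 and 17.53 FPKM in DNR replicates 1, 2 and 3. The replicates lay close together, with a coefficient of variation of 1.09% in DMSO and 2.14% in DNR, against 9.15% and 3.63% for Nfkbid, and the groups were 3.10 FPKM apart at their nearest samples. The mean went from 21.3 ± 0.23 to 17.6 ± 0.38 FPKM (SD, n = 3), a change of -17.6%. The log2 difference was -0.27 ± 0.05 (SE; limma, adjusted p = 0.0031). This fall missed the threshold of 0.05 after all samples were set to a common median (-0.082; limma, adjusted p = 0.28) or quantile normalized (-0.10; limma, adjusted p = 0.15), while Nfkbid was higher under both (0.54 and 0.27; limma, adjusted p = 0.00014 and 0.013). Of all 388 tested transcripts, 70.4% passed with the common median and 82.5% with quantile normalization. For either gene alone the exact two-sided permutation test over samples gave p = 0.1, the smallest that 3 against 3 allows.

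**Figure D1:**
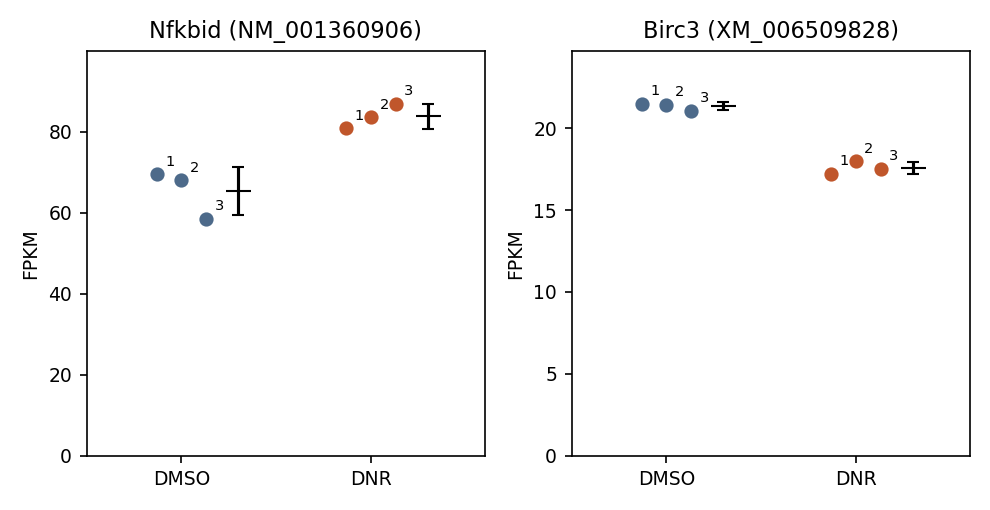
FPKM of the listed transcripts of Nfkbid (left) and Birc3 (right) in each sample, with the replicate number beside each point and black bars for the mean and SD of each group (n = 3); both axes start at 0. All 3 DNR samples lie above all 3 DMSO samples for Nfkbid and below them for Birc3.

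Nearly every tested transcript of the table passed, as these genes did. Testing required 1 FPKM or more in at least 3 samples, which 388 transcripts met, these genes included. Of those, 99.7% passed the threshold and 99.7% had groups that did not overlap, 43.0% of the tested transcripts being higher and 56.7% lower in DNR. The table is the matrix of a heatmap of these groups, so its rows were probably picked because these same samples differ, and that both genes passed is no evidence about them beyond what nearly every tested transcript shows. With no filter, 566 of the 1037 listed transcripts passed, or 54.6%. Of the calls, 43.2% were higher and 56.8% lower as deposited, 61.2% and 38.8% after a shift to a common median, and 46.6% and 53.4% after quantile normalization. The median of the tested transcripts was 0.18 lower in DNR, which is the shift that the common median removes. Samples of a group correlated at 0.989 to 0.993 across tested transcripts and samples of different groups at 0.897 to 0.907. The column codes with O match the DMSO descriptions alone and those with D were given to DNR by elimination, and every direction rests on that reading.

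Set beside transcripts of like level, the rise of Nfkbid was among the larger ones and the fall of Birc3 was not. Among all called transcripts both were below the middle: Nfkbid had the 107th largest of 167 rises, whose median was 0.53, and Birc3 the 173rd largest of 220 falls, whose median was -0.45. Nfkbid had the 43rd highest DMSO mean of the 388 tested transcripts. Among the 65 other tested transcripts within 2 times its mean level over the 6 samples, 33 rose and 32 fell, with identical rows of a gene, such as Jund, counted separately. The median log2 change of the 33 was 0.23, and 3 of them rose by more than Nfkbid. Birc3 had the 130th highest DMSO mean. Of the 117 other transcripts within 2 times its level, 37 rose and 79 fell. The 79 fell by a median of 0.34 on the log2 scale, and 55 of them fell by more than Birc3. The change of Birc3, -0.27, also lay near the median change of all 388 transcripts, -0.22, shown as a dashed line in the plot of change against level.

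**Figure D2:**
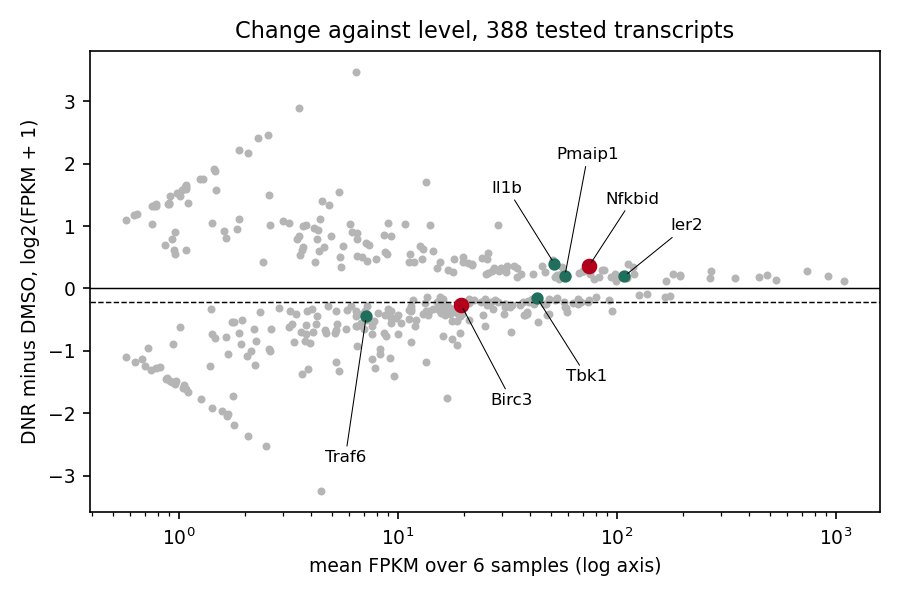
Difference between DNR and DMSO on the log2(FPKM + 1) scale against the mean FPKM over the 6 samples (log axis) for the 388 tested transcripts (grey), with Nfkbid and Birc3 in red and the other tested genes of the NF-kB and apoptosis lists in green; the solid line is 0 and the dashed line the median change, -0.22. Nfkbid sits at the upper edge of its neighbours and Birc3 close to the dashed line; with samples shifted to a common median all points move up by 0.18 and Tbk1 crosses 0.

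The ratio of the 2 genes within a sample does not change when a sample is rescaled by a constant factor. Nfkbid FPKM divided by Birc3 FPKM was 3.23, 3.17 and 2.78 in DMSO replicates 1, 2 and 3 and 4.70, 4.65 and 4.96 in DNR replicates 1, 2 and 3. All 3 DNR samples were above all 3 DMSO samples, and DMSO replicate 3, with the lowest Nfkbid, also had the lowest ratio. The groups of each gene did not overlap and moved in opposite directions, so this separation of the ratio follows from the values above and adds no support. The mean ratio went from 3.06 ± 0.25 to 4.77 ± 0.17 (SD, n = 3), a difference of 0.64 on the log2 scale or 1.56 times. The ratio shows that the 2 genes changed unequally, and by itself not which of them changed. It is given as a description with no test.

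**Figure D3:**
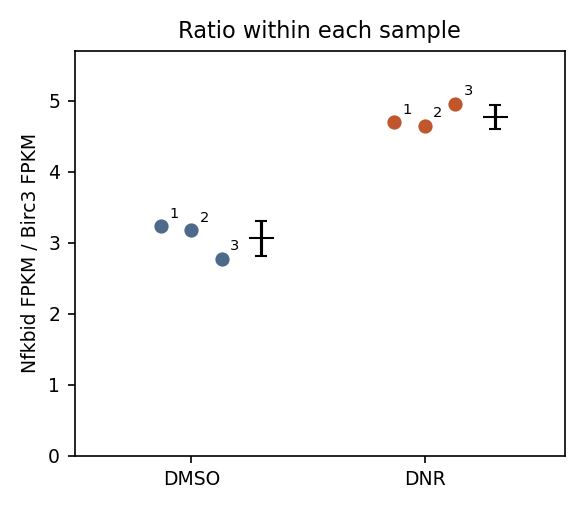
Nfkbid FPKM divided by Birc3 FPKM in each sample, with the replicate number beside each point and black bars for the mean and SD of each group (n = 3); the axis starts at 0. The DMSO samples lie between 2.78 and 3.23 and the DNR samples between 4.65 and 4.96.

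The other genes of the pathway were mostly outside the table. Of 101 genes in the lists of NF-kB subunits, IkB proteins, upstream signalling and target genes, 9 had a listed transcript and 6 were tested. Of these 6, 3 were higher (Nfkbid, Il1b and Ier2) and 3 lower (Birc3, Traf6 and Tbk1). Of all 388 tested transcripts, 43.0% were higher and 56.7% lower, so the split of the 6 lies near that of the table. Their median change was 0.02 against -0.22 over all 388, and 6 transcripts are too few to read a difference from. The list of 5 subunits, Rela and Nfkb1 among them, had 0 listed transcripts, and of 8 IkB proteins Nfkbid was the only one listed. Classical targets such as Nfkbia and Tnfaip3 were also not among the matched genes, so a change of NF-kB activity cannot be read from this table.

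Both tested upstream genes were lower as deposited. Traf6, a ubiquitin ligase that relays signals from Toll-like and interleukin 1 receptors, had 8.82, 7.85 and 8.58 FPKM in DMSO and 5.57, 6.80 and 5.39 FPKM in DNR (log2 difference -0.45 ± 0.11 SE; limma, adjusted p = 0.0068). Its groups did not overlap, yet the call was lost with a common median and with quantile normalization (limma, adjusted p = 0.096 and 0.069). Tbk1, a kinase of the IKK family that drives interferon responses, had 45.74, 46.01 and 45.06 FPKM in DMSO and 40.80, 40.57 and 41.24 FPKM in DNR (-0.15 ± 0.03 SE; limma, adjusted p = 0.0046). Its small difference was -0.02 with quantile normalization and changed sign to 0.03 with a common median (limma, adjusted p = 0.63 and 0.56). Traf3 encodes an adaptor that works with the cIAP proteins. Its untested transcript had 0.84, 1.72 and 0.12 FPKM in DMSO replicates 1, 2 and 3, and all 3 DNR samples list it at 0. A transcript of Sharpin, of the linear ubiquitin ligase complex, was at 5.17 FPKM in DNR replicate 2 and listed at 0 in the other 5 samples.

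Of the 4 tested target genes, 3 rose and Birc3 fell, where 43.0% of all 388 tested transcripts rose and 56.7% fell. Il1b, which encodes the cytokine interleukin 1 beta, had 39.17, 48.86 and 45.80 FPKM in DMSO and 52.56, 62.40 and 62.04 FPKM in DNR (0.40 ± 0.10 SE; limma, adjusted p = 0.0064). Ier2, an immediate-early gene, had 103.20, 102.68 and 96.76 FPKM in DMSO and 109.03, 119.99 and 118.54 FPKM in DNR (0.20 ± 0.05 SE; limma, adjusted p = 0.0060), a rise that quantile normalization reduced to 0.01 (limma, adjusted p = 0.85). Groups did not overlap for either gene, and the Il1b samples were the more scattered. A Hif1a transcript was at 1.35 FPKM in DNR replicate 2 and listed at 0 elsewhere. In the list of 45 inhibitor of apoptosis and apoptosis regulator genes, 5 had a listed transcript, and Birc3 and Pmaip1 were the tested ones. Pmaip1, which encodes the pro-apoptotic BH3-only protein Noxa, had 53.79, 53.89 and 53.89 FPKM in DMSO and 61.04, 62.98 and 61.87 FPKM in DNR (0.20 ± 0.03 SE; limma, adjusted p = 0.0017). Birc3, which restrains cell death, and Pmaip1, which promotes it, thus moved in opposite directions as deposited, with the fall of Birc3 lost under both rescalings. The 3 untested transcripts of this list, of Bcl2l11, Birc6 and Xaf1, reached at most 1.99 FPKM and were each listed at 0 in at least 3 samples.

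**Figure D4:**
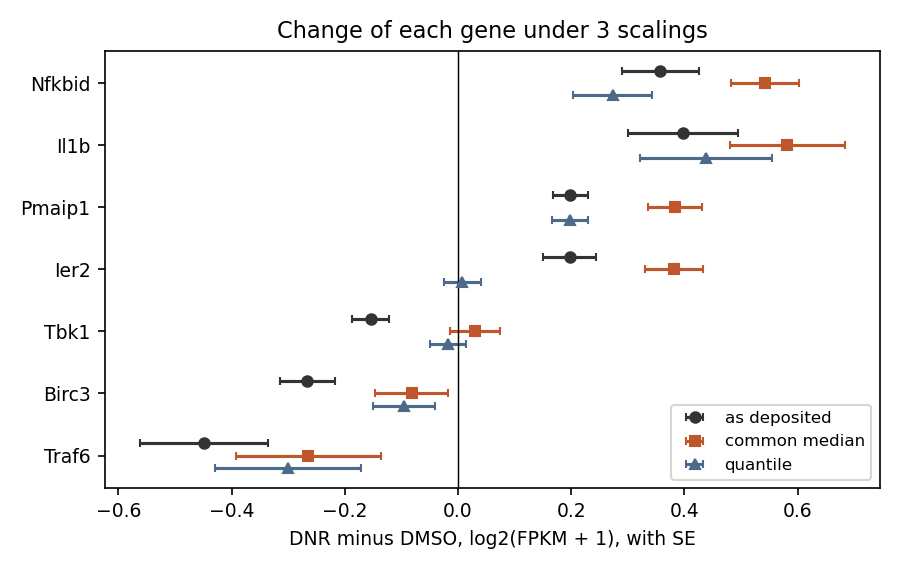
Difference between DNR and DMSO on the log2(FPKM + 1) scale with its SE for the 7 tested genes of the NF-kB and apoptosis lists, as deposited (circles), with samples shifted to a common median (squares) and with quantile normalization (triangles). Nfkbid, Il1b and Pmaip1 stay to the right of 0 under all 3, Birc3 and Traf6 stay to the left but nearer to 0 under both rescalings, Ier2 reaches 0.01 with quantile normalization and Tbk1 crosses 0 with a common median.

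Transcripts of genes that mark other cells were present, and 3 genes of the myeloid list rose, as Nfkbid did. Of 10 markers of CD8+ T cells, such as Cd3e and Cd8a, 0 were listed, so the label of the cells cannot be checked against them in this table. Of 14 myeloid markers, 4 genes were listed with 5 transcripts. Csf1r, Tgfbi and Il1b rose, and the tested Itgax transcript met the filter through its DNR samples alone. Across the 388 tested transcripts 43.0% rose and 56.7% fell, and 3 genes are too few to read a difference from that. The summed level of the 5 ran from 127.0 to 136.4 FPKM in DMSO and from 150.9 to 171.8 FPKM in DNR. Csf1r, the receptor of macrophage colony-stimulating factor, had 63.23, 62.79 and 58.45 FPKM in DMSO and 69.62, 71.05 and 79.11 FPKM in DNR. The 6 samples had the same order for Csf1r as for Nfkbid, from DMSO replicate 3 as the lowest to DNR replicate 3 as the highest. Actb, Ccnd3 and Nfat5, which are outside the myeloid list, had that order too. These 3 are examples picked with the values known, and Nfat5 is also among the profiles nearest to Nfkbid. The share of all tested transcripts with this order was not counted. Nfkbid FPKM divided by Csf1r FPKM was 1.10, 1.08 and 1.00 in DMSO and 1.16, 1.18 and 1.10 in DNR, so DMSO replicate 1 and DNR replicate 3 had nearly the same ratio. The order of samples for Tgfbi and for Il1b differed from that of Nfkbid. Nfkbid divided by Tgfbi was 2.97, 2.86 and 2.50 in DMSO and 2.97, 3.01 and 2.95 in DNR, and divided by Il1b it was 1.77, 1.39 and 1.28 in DMSO and 1.54, 1.34 and 1.40 in DNR. The groups overlapped for both ratios. Divided by Csf1r, Birc3 was 0.34, 0.34 and 0.36 in DMSO and 0.25, 0.25 and 0.22 in DNR. Tgfbi stood at 23.41 to 23.77 FPKM in DMSO and 27.23 to 29.49 FPKM in DNR, and Il1b is in the myeloid list as well as among the targets. Itgax had 2 low transcripts that went opposite ways: NM_001363985 was listed at 0 in DMSO and had 1.51, 1.20 and 1.14 FPKM in the DNR samples, while NM_001363984, untested, had 1.23, 0.96 and 1.19 FPKM in the DMSO samples and was listed at 0 in DNR. Of 8 B cell markers, transcripts of Spib and Ebf1 were listed, untested, at 4.25 FPKM at most, and of 7 markers of CD4 T and natural killer cells 0 were listed. The part of myeloid RNA in the change of Nfkbid was not tested, and in bulk samples more cells of a type and more RNA per cell cannot be told apart.

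The direction of change differed with the span of the gene, counted from its first to its last base with introns. Across the 323 tested transcripts with a gene symbol and a value above 0 in all 6 samples, genes spanning under 10 kb had 45 transcripts that rose and 5 that fell, of 50. Nfkbid, at 7.0 kb, is among the 45. Rows of a gene with identical values, such as those of Jund, were counted separately. Genes of 20 to 40 kb had 27 that rose and 27 that fell, with Birc3, at 25.7 kb, among the latter. Genes of 100 kb or more had 11 that rose and 60 that fell, of 72. The part of gene span in either result was not tested, and this grouping was made after the values were seen.

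**Figure D5:**
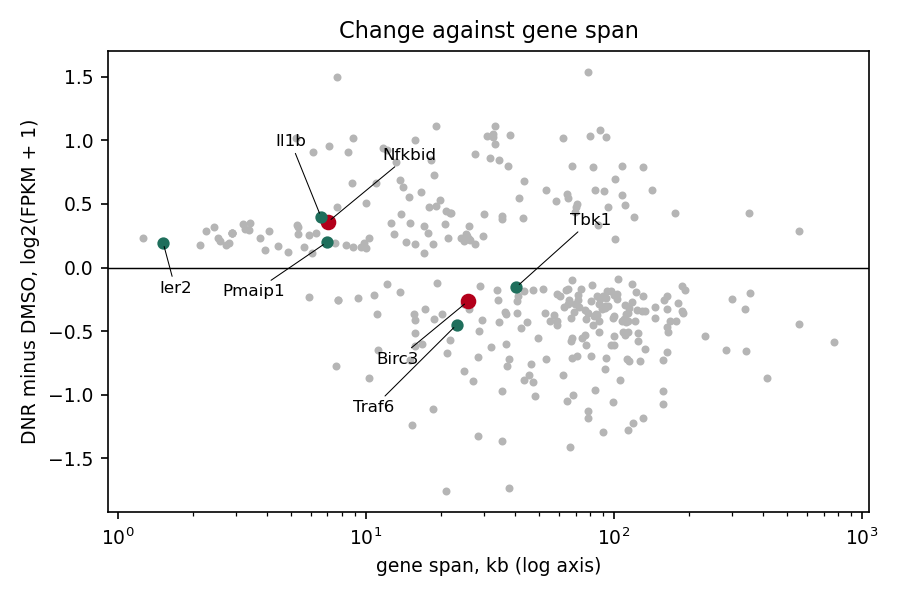
Difference between DNR and DMSO on the log2(FPKM + 1) scale against the span of the gene in kb (log axis) for the 323 tested transcripts with a symbol that were above 0 in all 6 samples (grey), with Nfkbid and Birc3 in red and the other tested genes of the NF-kB and apoptosis lists in green, values as deposited. Short genes lie mostly above 0 and long ones below; with samples shifted to a common median Tbk1 would lie at 0.03.

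Each value is of 1 transcript, and the rest of the gene's transcripts are not in the table. For Nfkbid the annotation of GENCODE M21 (GRCm38) gives the listed transcript 12 exons and 2014 bases. NM_001360907, which begins 674 bases further downstream, shares 1910 of these bases, or 94.8%, and NM_172142, which begins 1543 bases downstream, shares 1911, or 94.9%. Reads in the shared exons fit all 3 transcripts, so the value of NM_001360906 depends on how the quantification divided them. The predicted Birc3 transcript was not paired with a GENCODE transcript, and NM_007464, the curated Birc3 transcript, has 9 exons and is not among the listed rows.

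The transcripts whose profiles came closest to each gene were found by the root mean square difference of log2(FPKM + 1) values over the 6 samples, after each transcript was centred on its own mean. For Nfkbid these were, in order, Afg3l1, Plk3, Cited2, Nr4a2 and Nfat5, with differences of 0.047, 0.048, 0.053, 0.056 and 0.060. The Afg3l1 transcript meant here is XM_011248276. Another tested transcript of that gene, NM_054070, was lower in DNR, with a log2 change of -0.32. The 5 closest transcripts rose by 0.33, 0.32, 0.32, 0.33 and 0.34 on the log2 scale, against 0.36 for Nfkbid. Plk3, a stress-responsive kinase gene, had 31.93, 31.97 and 29.24 FPKM in DMSO and 36.88, 40.35 and 39.90 FPKM in DNR, and Cited2, a transcriptional co-regulator gene, at 29.62, 27.19 and 26.25 FPKM and 34.06, 34.17 and 36.13 FPKM. DMSO replicate 3 was the lowest sample for all 5, as it was for Nfkbid. Since the 5 were chosen by these same values, this and the like sizes of change follow largely from the choice. The rise of the Nfat5 transcript was lost without DMSO replicate 3 (limma, adjusted p = 0.066) and without DNR replicate 3 (limma, adjusted p = 0.056).

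For Birc3 the closest were Med1, Chst3, Pias1, Snx9 and Specc1l, with differences of 0.030, 0.032, 0.037, 0.039 and 0.046. Their log2 changes as deposited were -0.22, -0.26, -0.25, -0.22 and -0.22, against -0.27 for Birc3. Med1, which encodes a subunit of the Mediator complex, had 16.45, 16.50 and 16.21 FPKM in DMSO and 13.36, 14.63 and 13.80 FPKM in DNR. Pias1, a SUMO ligase gene, was at a similar level to Birc3, with 20.66, 20.56 and 21.34 FPKM in DMSO and 17.73, 17.52 and 16.99 FPKM in DNR. As with Birc3, none of these 5 passed once samples were set to a common median, with adjusted p = 0.68, 0.21, 0.43, 0.48 and 0.63 by limma. Because they were chosen for profiles like that of Birc3, this likeness follows largely from the choice. With quantile normalization Chst3 and Snx9 passed (limma, adjusted p = 0.011 and 0.042), which Birc3 did not.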

How the data were processed

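Per the labels' protocols, total RNA was made into sequencing libraries with a SMARTER mRNA kit. Values in the deposited table are log2(FPKM + 1) per RefSeq transcript: its header says FPKM, and raising 2 to each value and subtracting 1 gave 2 decimals in 100% of cells (within 1e-06). Builds GRCm38 and mm10 are named in the submitters' processing notes; the sources used here do not give the aligner, the quantification program or how transcripts entered the table. FPKM keep no read totals, so depth is unknown and counting intervals are not given. Of the 1037 accessions, 1013 matched a gene of RefSeq on GRCm38.p6, and all 6 value columns were mapped to samples.

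Transcripts at 1 FPKM or more in at least 3 samples were tested with limma 3.58.1 in R 4.3.3 (lmFit, eBayes with a mean-variance trend), treatment alone in the model, two-sided, Benjamini-Hochberg threshold 0.05, after a check on simulated data. Changes are DNR minus DMSO on the log2(FPKM + 1) scale, which understates low transcripts. Alternatives were the pseudocount, filter, scaling, variance trend, replicate block, gene sums and leaving out each sample. Named genes are both members, listed transcripts of the fixed lists and the 5 nearest profiles per member. Beside these, Actb, Ccnd3 and Jund are named as examples picked with the values known, and Wdr62 as a neighbour of Nfkbid on the chromosome. Members, lists and rules were chosen with earlier results of these data known.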

Additional observations from a re-analysis of the deposited data

How the results depend on the processing

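The rise of Nfkbid and the difference in the ratio of Nfkbid to Birc3 kept their direction under every alternative run for them, and the rise of Nfkbid stayed past the threshold. Its log2 change ran from 0.28 to 0.40 when each sample was left out (limma, adjusted p = 0.0044 to 0.015), and was 0.54 with a common median and 0.27 with quantile normalization. The fall of Birc3 ran from -0.28 to -0.25 when each sample was left out (limma, adjusted p = 0.0071 to 0.012) and was not past the threshold with samples shifted to a common median (-0.082) or quantile normalized (-0.10). Of the 6 tested transcripts of the NF-kB lists, 3 passed with a common median and 2 with quantile normalization, against 70.4% and 82.5% of all 388, and Tbk1 changed sign with a common median (0.030). Transcripts called lower went from 220 to 106 with a common median, and those called higher from 167 to 111 with a filter of 5 FPKM, which tests 265 transcripts. Both scalings rest on this table alone, where falls outnumber rises as deposited but not with a common median. Which scaling is right was not tested. The labels number the replicates 1 to 3 in both groups. Same-numbered samples deviated from their group means with correlations of -0.05, 0.05 and 0.04 only. That shows no common deviation, but with 3 samples per group it cannot exclude that the samples were paired. With the replicate block, 385 of 388 transcripts passed against 387 without it, and the log2 changes of Nfkbid and Birc3 were 0.36 and -0.27 (limma, adjusted p = 0.0097 and 0.0084).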

Other observations

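The genes around both loci were nearly absent from the table. Of 77 other genes within 500 kb of Nfkbid on chromosome 7, 1 had a listed transcript: Wdr62, which encodes a centrosomal protein, had 0.72, 0.18 and 0.37 FPKM in DNR replicates 1, 2 and 3 and was listed at 0 in every DMSO sample, below the level needed for a test. Of 24 other genes within 500 kb of Birc3 on chromosome 9, 0 were listed.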
